A study of Homo sapiens with 8 samples.

Results

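MiR-31, miR-135b, miR-224 and miR-592 are microRNAs that are commonly raised in colorectal tumours, and their levels were followed in HCT116 cells after contact with enterotoxigenic Bacteroides fragilis (ETBF). The members were the 6 names hsa-miR-31-5p, hsa-miR-31-3p, hsa-miR-135b-5p, hsa-miR-135b-3p, hsa-miR-224-5p and hsa-miR-592, taken by exact name from the 2575 miRNA names that every file lists. ETBF is a bacterium of the colon whose secreted toxin is a protease. HCT116 is a human colorectal cancer cell line, and its passage number ranged from 16 to 19. For 4 libraries RNA was taken after 6 hours of co-culture with ETBF at a multiplicity of infection of 500. For 4 control libraries the cells, titled untreated, were given bacterial medium free of ETBF per the labels' protocols. The labels do not say that replicates were separate cultures, so p-values measure the spread between these libraries, which may be technical in part.

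A miRNA hairpin is cut by Drosha and Dicer into a short duplex, of which one strand, the guide, is kept in an Argonaute protein while the other, the passenger, is mostly degraded. The names end in 5p or 3p after the side of the hairpin that the strand comes from. A guide finds its messenger RNAs mainly through bases 2 to 8, the seed. MiR-31 is raised in colorectal tumours, above all in those with BRAF mutations, and represses the RAS inhibitor RASA1. MiR-135b represses APC, the tumour suppressor that holds beta-catenin in check, and miR-224 represses SMAD4, the shared mediator of TGF-beta signalling. MiR-592 is higher in colorectal tumours with intact mismatch repair than in deficient ones, and HCT116 is a mismatch repair-deficient line.

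The mature sequences of the members show which strands are compared and, for the 5 printed, that no seed is shared. They are RefSeq's, 5′ to 3′, with the seed in capitals, and 5 of the 6 members had an entry.
miR-31-5p: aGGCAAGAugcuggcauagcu
miR-135b-5p: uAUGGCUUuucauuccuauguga
miR-135b-3p: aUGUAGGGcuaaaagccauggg
miR-224-5p: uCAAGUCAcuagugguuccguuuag
miR-592: uUGUGUCAauaugcgaugaugu
The sixth member is miR-31-3p, whose seed was not compared. RefSeq held a sequence for 2260 of the 2575 names, and shared seeds were sought only among these. One other miRNA listed in the files had the seed of a member by the same table, miR-135a-5p (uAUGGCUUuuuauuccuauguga), which carries the seed of miR-135b-5p. These 2 strands are identical at 22 of 23 positions and differ by C11U, counted from the 5′ end of miR-135b-5p.

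The hairpin of miR-135b is shown whole because its 2 arms moved in opposite directions, with the 5p and then the 3p strand in capitals.
MIR135B: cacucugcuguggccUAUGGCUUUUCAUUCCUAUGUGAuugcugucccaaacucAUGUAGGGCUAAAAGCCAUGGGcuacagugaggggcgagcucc
By RefSeq on GRCh38.p14 this hairpin lies on the minus strand at chr1:205448302-205448398, in GENCODE's annotation within an intron of LEMD1. The miR-31 hairpin lies on the minus strand at chr9:21512115-21512185, between exons of the long non-coding RNA gene MIR31HG. The miR-224 hairpin lies on the minus strand of the X chromosome at chrX:151958578-151958658, within the GABA receptor subunit gene GABRE and overlapping an exon of at least 1 of its annotated transcripts. The miR-592 hairpin lies on the minus strand at chr7:127058088-127058184, between exons of the glutamate receptor gene GRM8.

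Library totals ran from 2591655 to 4706156 counts with ETBF and from 5243400 to 6522542 counts in controls, so ETBF libraries were the shallower ones. A count of 0 allows up to 3 counts, or 0.46 to 1.16 CPM (counts scaled to library size) depending on the library, for counting error only. For the marker lists that follow, calls are at an adjusted p under 0.05, where 19.8% of all 480 tested miRNAs were higher and 14.6% lower. Of 8 gut epithelial miRNAs in the files 8 were tested and 5 were lower with ETBF. Their summed level was 23982 to 26933 CPM with ETBF and 28227 to 30121 CPM in controls. Of 7 blood and endothelial markers 5 were tested, 1 higher and 1 lower. MiR-451a was higher (mean 29.4 CPM with ETBF, 7.24 CPM in controls) and miR-126-3p lower (mean 1131 CPM with ETBF, 1520 CPM in controls). The list's summed levels, mostly miR-126-3p, were 1072 to 1303 CPM with ETBF and 1478 to 1664 CPM in controls. None of the 7 was at 0 in every library. Of 7 stromal and muscle markers 4 were tested and none passed, with sums of 389 to 430 CPM with ETBF and 415 to 429 CPM in controls, and miR-206 was at 0 throughout. Of 9 entries that resemble ribosomal or other RNA, 5 were tested and 5 were higher, with sums of 195 to 611 CPM with ETBF and 46.7 to 174 CPM in controls, while miR-1290 and miR-4454 were at 0 throughout. The part of any of these in the results below was not tested.

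Of the 6 members, 5 had enough counts to test and miR-592 did not. With ETBF both arms of miR-31 and the 3p arm of miR-135b rose, while miR-135b-5p and miR-224-5p fell, by at most 2.25-fold. Of the 5, 3 were thus higher and 2 lower. Among all 480 tested miRNAs 34.4% passed in either direction, 19.8% were higher and 14.6% were lower at an adjusted p under 0.05 (edgeR's quasi-likelihood test, Benjamini-Hochberg over all 480), and the median log2 fold change was 0.01. In all, 95 were higher and 70 lower, a split that was 71 to 89 with upper-quartile scaling and 80 to 89 after removing each library's trend of level on the GC content of the strand. The 2 groups did not overlap for 4 of the 5 members, and 33.8% of all tested miRNAs were without overlap.

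MiR-31-5p, the guide strand of its hairpin, was the most abundant member, at rank 35 of 480 by mean level. It stood at 3601, 3965, 3369 and 2933 CPM in ETBF replicates 1 to 4, against 2335, 2687, 2919 and 3044 CPM in control replicates 1 to 4. ETBF replicates 1 to 3 lay above every control, and ETBF replicate 4, the shallowest library, lay within the control range. ETBF libraries averaged 3467 ± 432 CPM and controls 2746 ± 311 CPM (SD, n = 4 each). The log2 fold change was 0.34 with an SE of 0.10 (edgeR adjusted p = 0.0119). That call was lost without ETBF replicate 1 (0.31, adjusted p = 0.0516), without ETBF replicate 2 (0.24, adjusted p = 0.0798) and with upper-quartile scaling (0.26, adjusted p = 0.0621).

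MiR-31-3p, the passenger strand, whose level in tumours has been studied as a marker of response to EGFR antibodies, also rose. It was at 202, 278, 286 and 268 CPM with ETBF, against 161, 161, 143 and 174 CPM in controls. The groups did not overlap, and ETBF replicate 1 was the nearest to the controls. ETBF libraries averaged 259 ± 38.3 CPM and controls 160 ± 12.7 CPM (SD, n = 4 each). The log2 fold change was 0.69 with an SE of 0.11 (edgeR adjusted p = 0.000109). ETBF replicate 1 had the lowest 3p value of its group and a 5p value above the group's mean.

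MiR-135b-5p, the guide strand that carries the APC-directed seed, fell. It was at 354, 347, 364 and 323 CPM with ETBF, against 437, 540, 501 and 537 CPM in controls. All 4 ETBF libraries lay below all 4 controls, with control replicate 1 the closest to them. ETBF libraries averaged 347 ± 17.7 CPM and controls 504 ± 47.8 CPM (SD, n = 4 each). The log2 fold change was -0.54 with an SE of 0.08 (edgeR adjusted p = 0.000109).

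MiR-135b-3p, the passenger strand of the same hairpin, went the other way. In raw counts it had 113, 105, 81 and 65 in ETBF replicates 1 to 4 and 63, 51, 53 and 69 in control replicates 1 to 4. Relative to library size this was 24.3, 24.7, 20.8 and 24.3 CPM with ETBF, against 12.5, 8.98, 10.1 and 10.3 CPM in controls. Every ETBF library lay above every control after scaling, although ETBF replicate 4 and control replicate 4 had similar raw counts. ETBF libraries averaged 23.5 ± 1.82 CPM and controls 10.5 ± 1.49 CPM (SD, n = 4 each), a 2.25-fold rise. The log2 fold change was 1.17 with an SE of 0.14 (edgeR adjusted p = 5.88e-06) and ranked 24 among the 480 from the highest down. The plot of member levels by library shows the gap between groups for each strand.

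**Figure D1:**
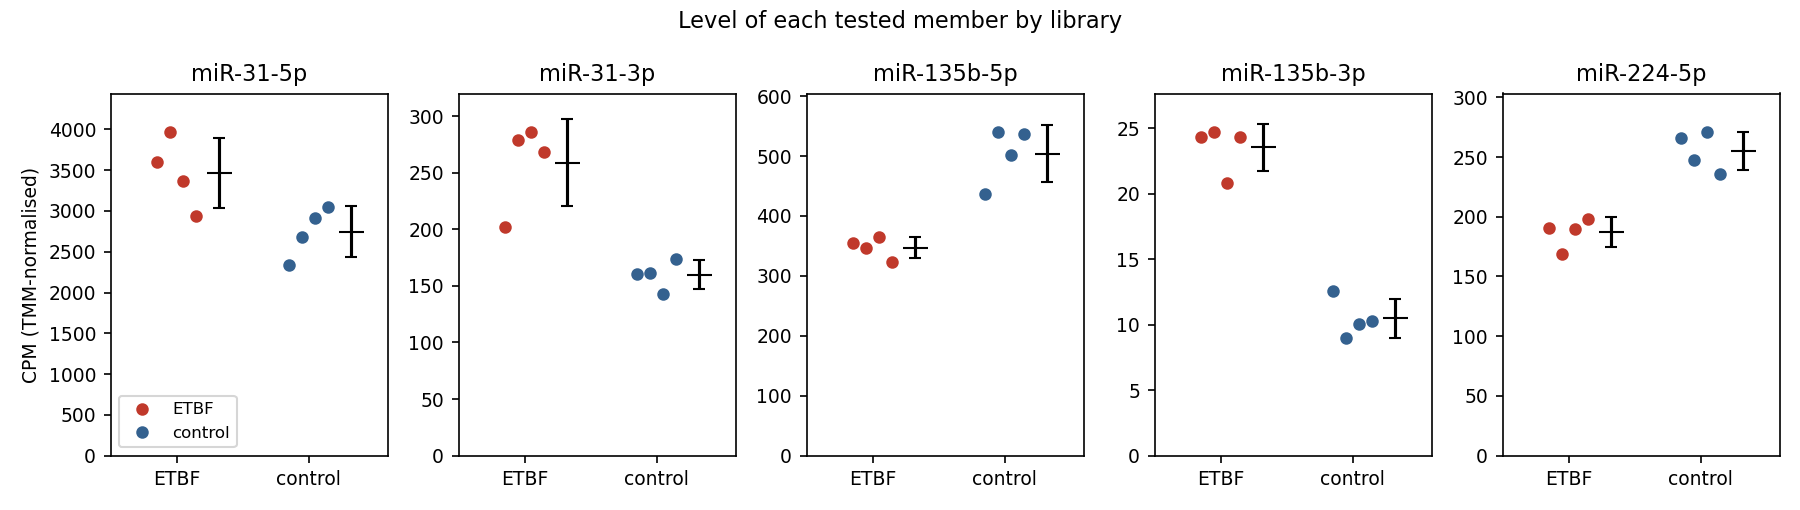
Level of each tested member in CPM (TMM-normalised, y axes from 0), 4 ETBF libraries at left in red and 4 control libraries at right in blue, replicates 1 to 4 in order within a group, with mean and SD in black. MiR-135b-5p lies at 323 to 364 CPM with ETBF and 437 to 540 CPM in controls while miR-135b-3p lies at 20.8 to 24.7 CPM with ETBF and 8.98 to 12.5 CPM in controls.

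Within a library the ratio of the 2 arms does not depend on scaling. The 3p strand made up 6.41%, 6.63%, 5.40% and 7.01% of the miR-135b counts with ETBF, against 2.79%, 1.64%, 1.97% and 1.88% in controls. The lowest exact 95% binomial bound with ETBF was 4.31%, in replicate 3, and the highest bound in controls was 3.55%, in replicate 1. Counts of the 5p strand per 3p count averaged 14.9 ± 1.85 over ETBF libraries and 49.2 ± 10.5 over controls (SD, n = 4 each). The log2 ratio of 5p to 3p changed by -1.70 (SE 0.18, adjusted p = 0.000126 by limma over 118 hairpins), a change that ranked 2 by size among the 118 and was the largest one towards a 3p arm.

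For miR-31 the 3p share was 5.32%, 6.56%, 7.81% and 8.38% with ETBF, against 6.44%, 5.66%, 4.67% and 5.40% in controls. The groups overlapped, since ETBF replicate 1 lay within the control range, while the other 3 ETBF libraries lay above it. The log2 ratio of 5p to 3p changed by -0.35 (SE 0.18, adjusted p = 0.170 by limma), so a difference between the rises of the 2 miR-31 arms was not shown at this spread. In the plot of arm shares the intervals of the ETBF libraries of miR-31 do not all overlap each other, so the spread exceeded counting error.

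**Figure D2:**
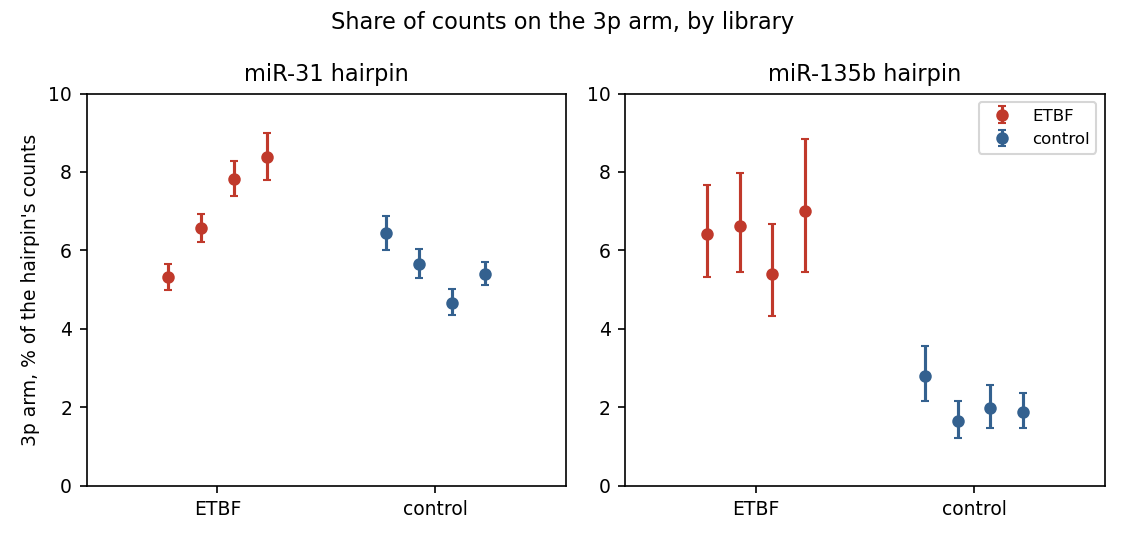
Percentage of a hairpin's counts on the 3p arm (y axis from 0 to 10) for miR-31 and miR-135b, one point per library with its exact 95% binomial interval, ETBF in red at left and control in blue at right. The miR-135b shares are 5.40% to 7.01% with ETBF and 1.64% to 2.79% in controls, while the miR-31 shares overlap.

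Across the 118 hairpins with both arms tested, the arm ratio passed in 38 (32.2%), and in 31 of these (26.3% of the 118) it moved towards the minor arm with ETBF, as it did for miR-135b. Without ETBF replicate 4, 25 arm ratios passed, and with no filter on low counts 9 passed, where miR-135b still did. Of the 118, 7 hairpins had a minor arm that was higher and a major arm that was lower, miR-135b among them, and 1 had the reverse. In 6 hairpins, among them miR-31, both arms were higher, and in 7 both were lower.

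**Figure D3:**
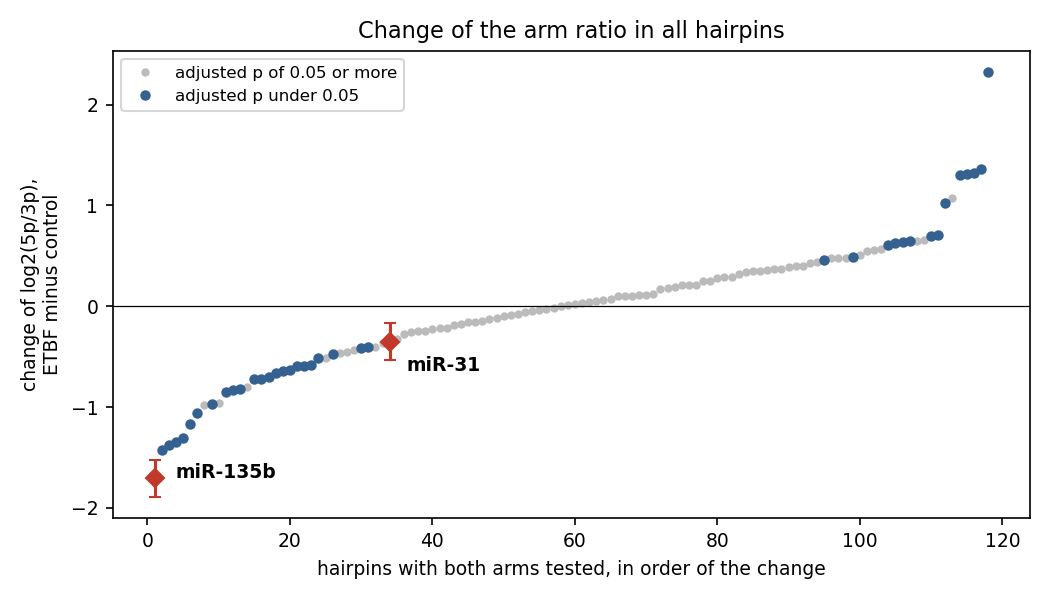
Change of log2(5p/3p), ETBF minus control, for the 118 hairpins in order of size, with those at an adjusted p under 0.05 in blue and the members as red diamonds with SE bars. MiR-135b has the lowest value of all at -1.70, and miR-31 is at -0.35.

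Summed over both arms, miR-31 rose and miR-135b and miR-224 fell, since the 5p strand dominates each hairpin. The miR-31 sum averaged 3779 ± 492 CPM over ETBF libraries and 2870 ± 334 CPM over controls, with a log2 fold change of 0.40 (SE 0.10, edgeR adjusted p = 0.00553 over 372 sums). Its groups overlapped, since ETBF replicate 4 (3212 CPM) lay below control replicate 4 (3242 CPM). The miR-135b sum averaged 376 ± 18.9 CPM over ETBF libraries and 507 ± 44.5 CPM over controls, with a log2 fold change of -0.43 (SE 0.08, edgeR adjusted p = 0.000512). The miR-224 sum was at -0.41 (SE 0.08, adjusted p = 0.000787). Among all 372 sums, 32.5% passed, 18.5% were higher and 14% were lower.

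MiR-224-5p, the guide strand directed at SMAD4, fell. It was at 190, 169, 190 and 198 CPM with ETBF, against 266, 248, 271 and 236 CPM in controls. Every ETBF library lay below every control. ETBF libraries averaged 187 ± 12.5 CPM and controls 255 ± 16.3 CPM (SD, n = 4 each). The log2 fold change was -0.45 with an SE of 0.08 (edgeR adjusted p = 0.000485). Its partner strand miR-224-3p, which is no member, had 6, 5, 9 and 1 counts with ETBF and 4, 3, 4 and 6 in controls, too few to test.

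The hairpin of miR-452 lies 969 bases from that of miR-224, in the same gene, GABRE, and on the same strand. MiR-452-5p was at 83.8, 69.6, 69.3 and 77.5 CPM with ETBF, against 68.8, 66.7, 57.0 and 65.0 CPM in controls. All ETBF values were above the controls by a small margin, with a log2 fold change of 0.22 (SE 0.10) that did not pass (adjusted p = 0.101 by edgeR) except with library totals as the only scaling (0.27, adjusted p = 0.0421). MiR-452-3p averaged 7.98 ± 1.49 CPM over ETBF libraries and 7.96 ± 1.47 CPM over controls (SD, n = 4 each), with a log2 fold change of -0.0025 (SE 0.20) and a sign that turned in several alternatives.

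The 2 neighbouring 5p strands were also set against each other, a ratio chosen after their values were seen and given as a description. There were 2.27, 2.43, 2.74 and 2.56 counts of miR-224-5p per count of miR-452-5p with ETBF, against 3.87, 3.71, 4.75 and 3.63 in controls. The mean log2 ratio differed by -0.67, ETBF minus control (n = 4 each). The groups did not overlap, as the levels of the 2 strands already imply. The plot of arms and hairpin sums sets the strands of this gene beside the other members.

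**Figure D4:**
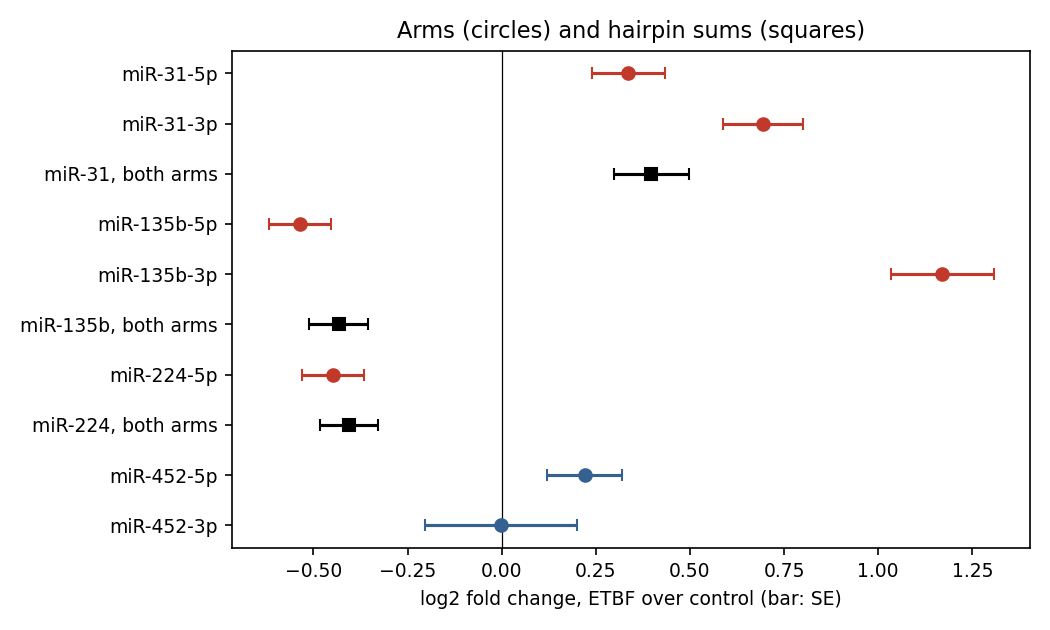
Log2 fold change, ETBF over control, with SE bars, for single arms (circles, members in red and the miR-224 neighbour miR-452 in blue) and for sums over both arms (black squares). MiR-135b-3p at 1.17 stands opposite miR-135b-5p at -0.54, and miR-452-5p at 0.22 opposite miR-224-5p at -0.45.

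MiR-592 had 0 to 4 counts in every library, too few to test. It had 0, 3, 3 and 3 counts with ETBF and 1, 1, 0 and 4 in controls, or 9 in all with ETBF (exact Poisson 95% interval 4.12 to 17.1) and 6 in controls (2.20 to 13.1). The intervals overlap, but they are of raw counts and the ETBF libraries were shallower, so they do not compare levels. Levels averaged 0.65 ± 0.47 CPM over ETBF libraries and 0.24 ± 0.25 CPM over controls (SD, n = 4 each). Their ranges overlapped, and no difference was shown at this depth. The seed relative of miR-135b-5p, miR-135a-5p, was also scarce, with 8, 10, 6 and 2 counts with ETBF and 4, 2, 10 and 6 in controls. All of these counts are even and miR-135a-5p has 2 hairpin genes, so a read may have been counted once per gene. MiR-135a-3p had 2 counts with ETBF and 0 in controls.

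By mean level over the 8 libraries the members ran from miR-31-5p (3107 CPM) through miR-135b-5p (425 CPM), miR-224-5p (221 CPM) and miR-31-3p (209 CPM) to miR-135b-3p (17.0 CPM), with miR-592 last. These are counts of whole strands of 21 to 25 bases, with no scaling by length, and capture can differ between strands. Neighbours in this order did not overlap within a group, but the order of miR-31-3p and miR-224-5p was not the same in both. MiR-31-3p was above miR-224-5p with ETBF (202 to 286 against 169 to 198 CPM) and below it in controls (143 to 174 against 236 to 271 CPM). The plot of members among all miRNAs places these levels and changes.

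**Figure D5:**
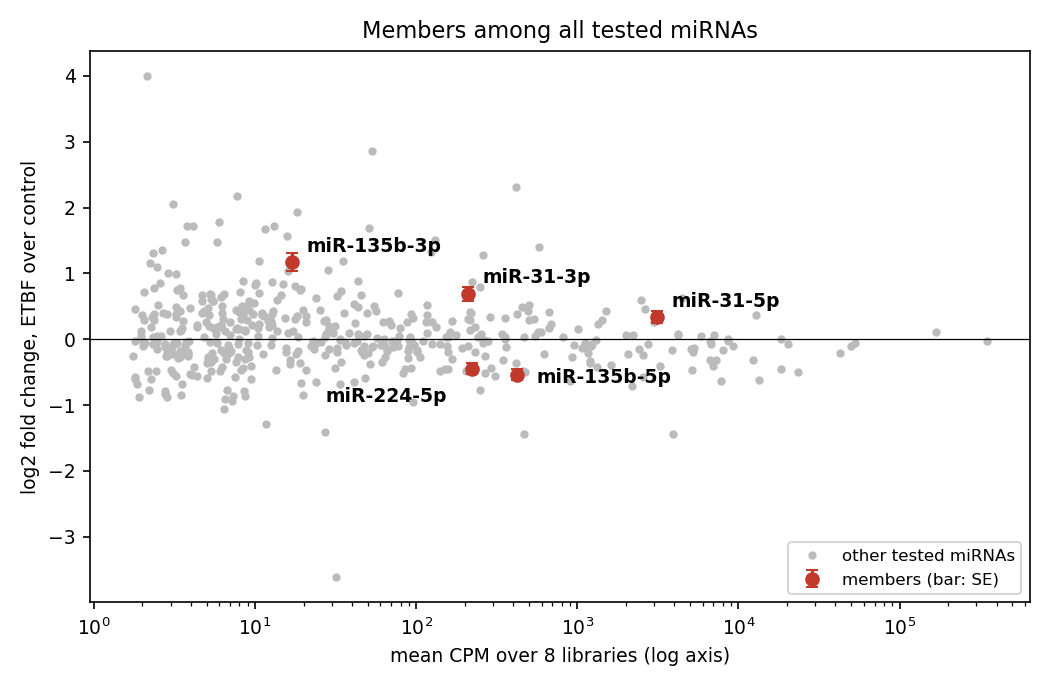
Log2 fold change, ETBF over control, against mean CPM (log axis) for the 480 tested miRNAs in grey and the 5 tested members in red with SE bars. The members at 209 CPM and above changed by 0.34 to 0.69 in size, and miR-135b-3p, at 17.0 CPM, by 1.17.

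The miRNAs whose log2 CPM followed each member most closely over the 8 libraries were sought among 293 others with a mean of at least 10 CPM. For miR-31-5p they were miR-9-3p (r = 0.95), miR-577 (r = 0.94) and miR-378a-5p (r = 0.93). For miR-31-3p they were miR-29b-3p, miR-339-5p and miR-651-5p (r = 0.97, 0.97 and 0.96). MiR-135b-5p was followed by miR-129-5p, miR-301b and miR-671-5p (r = 0.95, 0.94 and 0.94), all of which fell. MiR-135b-3p was followed by miR-4521, miR-21-3p and miR-125b-1-3p (r = 0.97 each), all of which rose. MiR-224-5p was followed by miR-130b-5p, miR-615-3p and miR-671-3p (r = 0.98, 0.97 and 0.96), all of which fell. The points share library and scaling, and for most of these miRNAs they share the difference between the groups as well. With group means removed, r was 0.05 to 0.20 for the 3 miRNAs nearest miR-135b-3p and 0.35 to 0.49 for those nearest miR-135b-5p. It was 0.72 to 0.93 for those nearest miR-224-5p, 0.84 to 0.89 for miR-31-3p and 0.87 to 0.92 for miR-31-5p. All were picked as the highest of 293 over 8 libraries, so high values come in part from the choice.

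A wider list of miRNAs often high in colorectal tumours held rises and falls. Of 24 such names 22 were in the files and 19 were tested, of which 6 were higher, 1 was lower and 12 did not pass, with a median log2 fold change of 0.10 against 0.01 over all tested miRNAs. Over all 480 tested miRNAs 34.4% passed in either direction, 19.8% higher and 14.6% lower. The list's count of calls in either direction was near that background. By direction its 6 of 19 higher lay above the share of all miRNAs and its 1 of 19 lower lay below it, a split that was not tested. The 6 are not independent of each other, since some share a cluster or are near-identical in sequence. The most abundant that rose were miR-103a-3p (0.37, SE 0.07), miR-20a-5p (0.63, SE 0.07) and miR-17-5p (0.60, SE 0.10). MiR-20a-5p and miR-17-5p come from the MYC-driven cluster of MIR17HG, as does miR-18a-5p, which also rose (0.38, SE 0.12). The list's other strands of this cluster, miR-19a-3p (0.26, SE 0.11) and miR-92a-3p (-0.0034, SE 0.08), did not pass. MiR-222-3p, which represses the cell cycle inhibitor CDKN1B, fell (-0.63, SE 0.07). The number lower was 3 with upper-quartile scaling and 5 after removal of the GC trend. MiR-103a-3p and miR-17-5p have near-identical relatives, so their reads may be shared. For miR-103a-3p such a relative is miR-107, which was also among the 6 higher (0.39, SE 0.07).

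Of 20 miRNAs commonly lowered in such tumours, 18 were in the files and 13 were tested, with 2 higher, 3 lower and 8 not passed, against 34.4% called among all 480. The list's median log2 fold change was 0.07, against 0.01 over all tested miRNAs, and its count of calls too was near the background. MiR-375 (-0.56, SE 0.07), miR-139-5p (-0.49, SE 0.08) and miR-192-5p (-0.30, SE 0.09) fell, and miR-30a-5p (0.32, SE 0.08) and miR-378a-5p (0.39, SE 0.14, adjusted p = 0.0449 by edgeR) rose. MiR-375 and miR-192-5p are also among the gut epithelial miRNAs counted as lower, so their falls appear in both lists. In 10 of 18 alternatives miR-378a-5p did not pass (edgeR adjusted p up to 0.194), among them the exclusion of ETBF replicate 1, 2 or 3 or of control replicate 1, 2 or 3.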

How the data were processed

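Small RNA counts were analysed from 8 libraries of HCT116 cells, grouped by their titles. The authors deposited raw read counts per mature miRNA name, 1 table per library; per the submitters' processing notes, Trimmomatic, FastQC and featureCounts were used with GRCh37.p5, with no version, aligner, miRNA annotation or strand setting stated there. Counts were tested in R 4.3.3 with edgeR 4.0.16 (TMM, default filter at a minimum count of 10, quasi-likelihood F test, 2 groups); 480 of 2575 names passed. SE is the fold change over the square root of F, so approximate. Arm ratios were tested with limma 3.58.1 on log2 ratios with 0.5 added to each count. Names differing only in their arm were summed for hairpins, and the sums were filtered and scaled on their own. Depth is given with the results; intervals cover counting error only. Scaling, filter, tool, replicate block, depth, GC trend and the libraries included were varied. Scripts were tested on simulated data. Replicates differed beyond sampling noise (chi-square of 18.4 to 112 for each degree of freedom within groups). Same-numbered libraries did not deviate together, so numbers were not taken as pairs. Members and lists were chosen with earlier results of these data known. Named besides members were their relatives, the 3 miRNAs most correlated with each, and up to 3 past the threshold per direction and list.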

Additional observations from a re-analysis of the deposited data

Results flagged for a closer look

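MiR-135b-3p was at 20.8 CPM (81 counts) in ETBF replicate 3, below the other 3 ETBF libraries, which lay close together at 24.3 to 24.7 CPM. That 1 library was flagged against the narrow spread of the other 3, with no allowance for counting error. The flagged value still lay above the highest control, at 12.5 CPM. Of the 16 sets of 4 libraries examined this was the only one with such a gap, and chance gives such a gap in about 1 of 20.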

How the results depend on the processing

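Alternatives were RLE, upper-quartile and total-count scaling, no filter, a minimum count of 50, DESeq2 1.42.0, limma-voom, the replicate number as a block, thinning to 2591655 counts, removal of the GC trend of the 86.9% of tested miRNAs with a sequence, and leaving out each library. Calls and directions of miR-31-3p (0.61 to 0.78), miR-135b-5p (-0.67 to -0.48), miR-135b-3p (1.09 to 1.26) and miR-224-5p (-0.54 to -0.39) held in all 18, and those of the 3 hairpin sums in all that were run for them. For miR-31-3p, which had no sequence, removal of the GC trend made no correction, so that alternative could not move its fold change. MiR-31-5p was at 0.26 with upper-quartile scaling and at 0.24 to 0.41 with 1 library left out, and lost its call in 3 of 18. The cause was not tested. The miR-31 sum, scaled with factors of its own, was at 0.46 with upper-quartile scaling. With a replicate block miR-31-5p was at 0.34 (adjusted p = 0.0391), miR-135b-3p at 1.17 and 159 miRNAs passed in place of 165; same-numbered libraries correlated at -0.06 to 0.06, and no member lost its call. The arm ratio of miR-135b stayed between -1.86 and -1.60 with 1 library left out. Its exact permutation p was 0.0286, the smallest possible, which any ratio without overlap between the groups reaches. The arm ratio of miR-31 did not pass under any alternative. Arm ratios passed in 38 hairpins, in 9 with no filter and in 25 without ETBF replicate 4. MiR-452-3p turned positive with library totals only (0.050), limma-voom (0.0039), the replicate block (0.0033) and without ETBF replicate 3 or control replicate 1 or 3 (0.10, 0.080 and 0.045), and ran from -0.13 to 0.10 with 1 library left out. Depth left miR-592, miR-224-3p and miR-135a untested.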
